A study of Eleusine coracana with 4 samples.

Results

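The 10 loci described here are aquaporin loci of the rice MSU annotation, chosen by their identifiers from the 55986 features counted in finger millet (Eleusine coracana) leaves. They are 3 plasma membrane loci of the PIP1 class (LOC_Os02g44630, LOC_Os04g47220 and LOC_Os02g57720), 4 of the PIP2 class (LOC_Os07g26690, LOC_Os02g41860, LOC_Os07g26630 and LOC_Os04g16450) and 3 of the TIP class of the tonoplast (LOC_Os03g05290, LOC_Os01g74450 and LOC_Os06g22960). The class of each locus came with the choice of loci. The deposited tables give identifiers without gene names, so neither the classes nor the leaf tissue could be checked against annotated marker genes.

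Aquaporins are membrane channels that let water, and in some classes other small neutral molecules, cross a membrane along its gradient. In plants, PIP proteins sit in the plasma membrane and TIP proteins in the tonoplast, the membrane around the vacuole. Proteins of the PIP2 class form efficient water channels by themselves in heterologous cells such as Xenopus oocytes, while many PIP1 proteins need a PIP2 partner to reach the plasma membrane. Soil salt lowers the water potential around the roots, and transcripts of aquaporins are known to change under salt in cereals, in directions that differ between genes, organs and times.

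The young, fully expanded leaves near the shoot apex came from the genotypes CO12 and Trichy 1. Plants grew in pots of fertilized field soil for 20 days. Control plants stayed well watered, and salt plants received NaCl to 300 mM at the 4-leaf stage; the time from salt to harvest is not given in the sources used here. Each of the 4 combinations of genotype and treatment had 1 library, so no difference below has a replicate check, no p-value is given, and every interval is a 95% interval of counting error only.

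Depth came to total gene reads numbering 6272817 without salt and 1831353 with salt in CO12, and 3347497 and 2406821 in Trichy 1, and both salt libraries were the shallower of their genotype. Between 95.9% and 96.4% of the reads lay in 26 features that were among the 20 most abundant of any library. The 10 aquaporin loci had 293, 146, 188 and 185 reads in the same order of libraries, so single loci rest on few reads. Levels are given as reads per 1000000 total gene reads of the library (RPM). Reads of finger millet were counted on loci with rice identifiers, and how well each locus matches its finger millet transcript is unknown. In whole leaves, fewer cells of a type and less RNA per cell cannot be told apart.

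All 10 loci had reads in all 4 libraries. Summed, they were at 46.7 RPM (95% interval 41.5 to 52.4) in control leaves of CO12 and at 79.7 RPM (67.3 to 93.8) under salt. In Trichy 1 the sum was 56.2 RPM (48.4 to 64.8) in control and 76.9 RPM (66.2 to 88.8) in salt. The salt library was therefore above the control library in both genotypes, and the counting intervals of salt and control did not overlap in either. The ratio of salt to control was 1.71 (1.39 to 2.09) in CO12 and 1.37 (1.11 to 1.69) in Trichy 1.

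The median log2 ratio of all features that reached 20 reads in one library or the other was -0.15 in CO12 (1025 features) and -0.25 in Trichy 1 (727 features), so most features lay slightly lower in the salt library. Against that median, the sum of the aquaporins was higher by a log2 value of 0.92 in CO12 and 0.70 in Trichy 1. A scaling factor shifts the sum and this median almost equally, so a steady distance under other scalings was fixed in advance. With unique reads the distance was 0.96 in CO12 and 0.71 in Trichy 1, and with a prior count of 2.5 it was 0.91 and 0.68. The ratio itself depended on the scaling in CO12. There, scaling factors over all features, which mostly hold few reads, brought the log2 ratio of the sum from 0.77 to 0.01 (TMM) and 0.24 (median of ratios).

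**Figure D1:**
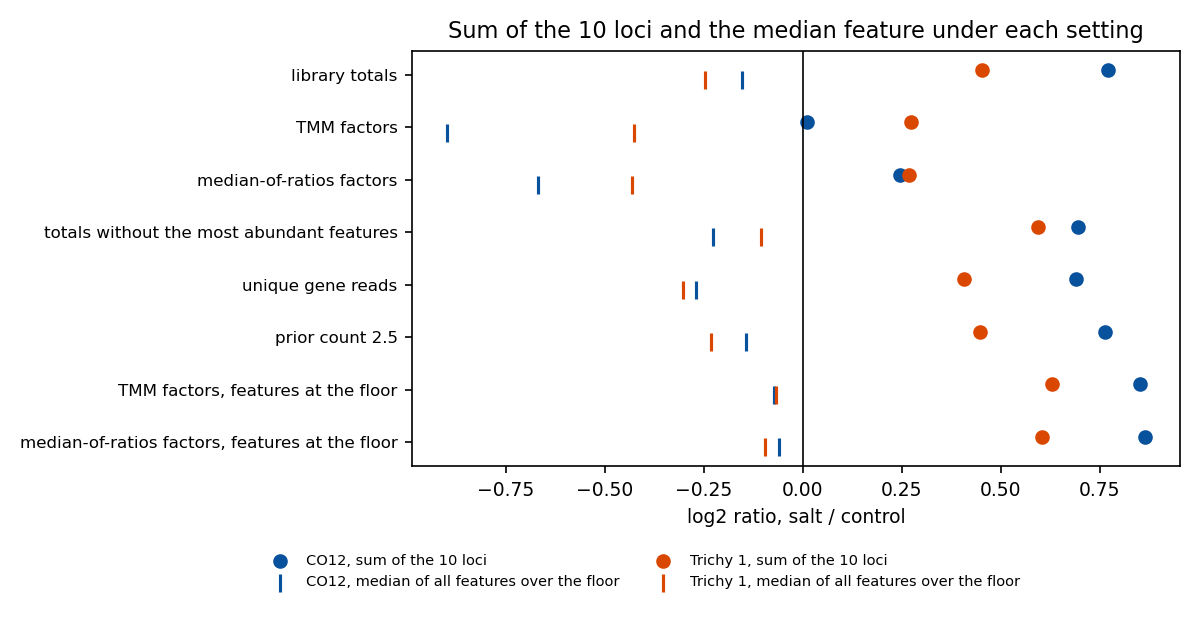
Log2 ratio of salt to control (x axis) for the summed reads of the 10 aquaporin loci (dots) and for the median of all features that reached 20 reads in one library or the other (ticks), under each scaling, kind of read and prior count (y axis), in CO12 (blue) and Trichy 1 (orange). The dots move with the ticks, since a scaling factor shifts both alike. In CO12 the sum is at 0.77 with library totals and at 0.01 with TMM factors over all features. Its distance above the median is 0.92 and 0.91.

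Of the 10 loci, 10 had a higher RPM in salt than in control in CO12 and 8 did in Trichy 1. With TMM factors over all features, 4 of the 10 in CO12 (LOC_Os02g44630, LOC_Os04g47220, LOC_Os02g41860 and LOC_Os06g22960) had a log2 ratio below 0. All 10 in CO12 lay above the median of all features, a place that a scaling factor hardly can change. They also did with unique reads and with a prior count of 2.5. Of all features that reached 20 reads, 43.6% were higher in CO12 salt and 39.1% in Trichy 1 salt. Only 6 (CO12) and 5 (Trichy 1) of the 10 loci reached the minimum of 20 reads in one library or the other. To be set beside these shares, 6 of 6 such loci were higher in CO12 salt and 3 of 5 in Trichy 1 salt. Among those, 3 of 6 were at least 2-fold higher in CO12 salt, where 10.8% of all features over the same minimum were, and 2 of 5 were in Trichy 1 salt, where 11.7% of all features were. No locus over the minimum was at least 2-fold lower in salt, against 19.1% of all features in CO12 and 17.2% in Trichy 1. The counting interval of the ratio lay above equality for 3 of 6 loci in CO12 (19.1% of all features) and 2 of 5 in Trichy 1 (19.8%), and below it for no locus, against 21.8% and 33% of all features. Over the loci that reached the minimum, the median log2 ratio was 0.82 in CO12 and 0.02 in Trichy 1. With unique reads, 1 of 6 loci over the minimum was at least 2-fold higher in CO12 (7.43% of all features) and 1 of 4 in Trichy 1 (8.68%).

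**Figure D2:**
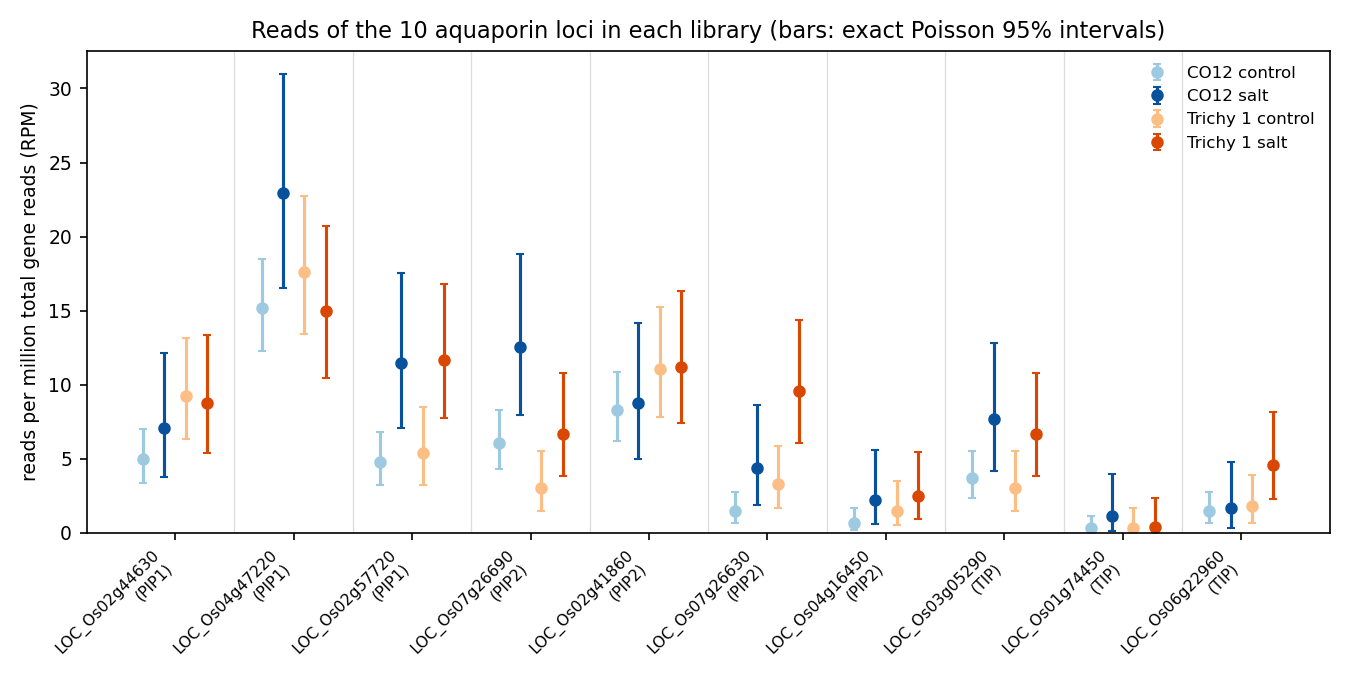
RPM of each aquaporin locus (y axis) in the 4 libraries (colours), with exact Poisson 95% intervals of counting error. LOC_Os04g47220 drew the most reads in every library, from 14.96 to 22.9 RPM, and LOC_Os01g74450 the fewest, with at most 1.09 RPM (loci differ in length).

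The PIP1 class, whose members often act together with PIP2 proteins, held the most reads of the 3 classes in each library. Its 3 loci together had 24.9 RPM without and 41.5 with salt in CO12, and 32.3 without and 35.3 with salt in Trichy 1. The ratio of salt to control was 1.67 (1.25 to 2.21) in CO12 and 1.09 (0.814 to 1.47) in Trichy 1. With TMM factors over all features the log2 ratio turned from 0.74 to -0.02 in CO12 and from 0.13 to -0.05 in Trichy 1. With library totals, the ratio in Trichy 1 divided by that in CO12 was 0.656 (0.442 to 0.974), an interval that lies just below equality. This difference depended on the scaling, since those TMM factors put the log2 ratios of the genotypes close together. The ratios of the 3 loci ranged from 1.44 to 2.40 in CO12 and from 0.849 to 2.16 in Trichy 1.

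LOC_Os02g57720 was higher under salt in both genotypes. It had 30 reads (4.78 RPM) in control leaves of CO12 against 21 reads (11.5 RPM) under salt, and 18 reads (5.38 RPM) in control leaves of Trichy 1 against 28 reads (11.6 RPM) under salt. Both salt libraries stood at about the same level, as did both control libraries, and the ratios were 2.40 (1.30 to 4.33) in CO12 and 2.16 (1.16 to 4.15) in Trichy 1. Nearly all its reads, 92 of 97, matched 1 place only, and the ratios over unique reads were 2.32 (1.22 to 4.33) and 2.11 (1.13 to 4.06). With library totals it was the only aquaporin locus among the 28 features at least 2-fold higher under salt in both genotypes. These 28 came from 686 features that reached the minimum in both comparisons, of which 4 were aquaporin loci. Factors over all features brought its log2 ratio in CO12 from 1.24 to 0.49 (TMM) and 0.72 (median of ratios). In Trichy 1 either method brought it from 1.09 to 0.91, so it was under 2-fold in both genotypes with these factors.

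LOC_Os04g47220, the locus with the most reads, had 95 reads (15.1 RPM) without and 42 (22.9 RPM) with salt in CO12, and 59 (17.6 RPM) without and 36 (14.96 RPM) with salt in Trichy 1. CO12 salt was the highest library, and Trichy 1 salt lay at the level of CO12 control. The ratio was 1.51 (1.03 to 2.20) in CO12 and 0.849 (0.545 to 1.31) in Trichy 1, and over unique reads 1.45 (0.9504 to 2.17) and 0.752 (0.469 to 1.19). With TMM factors over all features its log2 ratio was -0.16 in CO12 and -0.41 in Trichy 1, closer together than with library totals. The log2 difference between the salt responses, Trichy 1 minus CO12, was -0.84 (-1.63 to -0.04) with library totals. Such an interval wholly below 0 was found for 25.1% of the 686 features that reached the minimum in both comparisons, and for 1 of the 4 aquaporin loci among them. The median log2 difference of the 686 features was -0.20.

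LOC_Os02g44630 had 31 reads (4.94 RPM) in control leaves of CO12 against 13 (7.10 RPM) under salt, and 31 (9.26 RPM) in control leaves of Trichy 1 against 21 (8.73 RPM) under salt. CO12 control was its lowest library, but its interval of 3.36 to 7.01 RPM overlapped those of the other 3. Its ratio of salt to control was 1.44 (0.690 to 2.83) in CO12 and 0.942 (0.515 to 1.69) in Trichy 1. Without salt it was higher in Trichy 1 than in CO12, with a ratio of 1.87 (1.10 to 3.19), and under salt that ratio was 1.23 (0.587 to 2.67).

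Ratios between loci of the same library do not depend on how libraries are scaled. LOC_Os02g57720 had 0.316 reads for each read of LOC_Os04g47220 in control leaves of CO12 and 0.5 under salt, and 0.305 and 0.778 in Trichy 1. Between the control and the salt library, this ratio was thus multiplied by 2.55 (1.24 to 5.25) in Trichy 1 and by 1.58 (0.814 to 3.08) in CO12. Within the classes there are 12 such pairs of loci, and the interval lay to 1 side of equality for 3 of them between salt and control in Trichy 1 and for 0 in CO12. The other 2 pairs in Trichy 1 were LOC_Os02g57720 against LOC_Os02g44630, multiplied by 2.30 (1.02 to 5.17), and LOC_Os07g26630 against LOC_Os02g41860, multiplied by 2.87 (1.20 to 6.86). Over unique reads only the pair of LOC_Os02g57720 and LOC_Os04g47220 kept such an interval, at 2.81 (1.34 to 5.87).

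The PIP2 class, the efficient water channels of the plasma membrane, had a higher RPM under salt in both genotypes, but in CO12 this depended on the scaling. Its 4 loci together had 16.4 RPM without and 27.8 RPM with salt in CO12, a ratio of 1.70 (1.19 to 2.39). In Trichy 1 they had 18.8 and 29.9 RPM, a ratio of 1.59 (1.12 to 2.27). Factors over all features brought the log2 ratio in CO12 from 0.76 to 0.0011 (TMM) and 0.23 (median of ratios), and in Trichy 1 from 0.66 to 0.49 and 0.48. With unique reads the ratio was 1.52 (0.988 to 2.30) in CO12 and 1.57 (1.06 to 2.33) in Trichy 1. The class had the lowest share of unique reads, between 68.6% and 81.9% per library against 88.2% to 94.4% for PIP1.

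**Figure D3:**
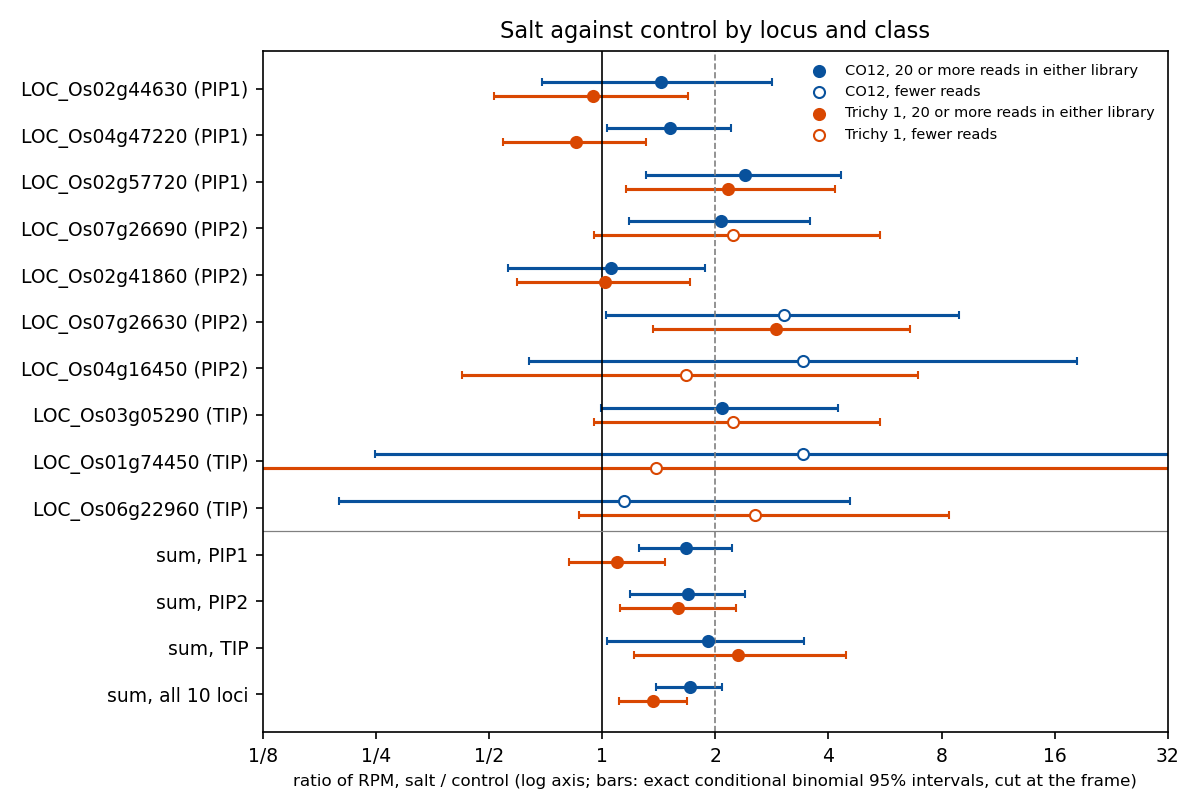
Ratio of RPM in salt to control (x axis, log scale) for each aquaporin locus and for the class sums (y axis), in CO12 (blue) and Trichy 1 (orange), with exact conditional binomial 95% intervals. Filled points have at least 20 reads in either library. The loci with both points near or beyond 2-fold (dashed line) include LOC_Os02g57720, at 2.40 and 2.16, while LOC_Os02g41860 sits at 1.05 and 1.01.

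LOC_Os02g41860, the PIP2 locus with the most reads, was level between salt and control within counting error when scaled to library totals. It had 52 reads (8.29 RPM) without and 16 (8.74 RPM) with salt in CO12, and 37 (11.1 RPM) without and 27 (11.2 RPM) with salt in Trichy 1. With library totals the ratios of 1.05 (0.562 to 1.88) and 1.01 (0.594 to 1.71) both include equality, and neither interval reaches 2-fold in either direction. Factors over all features brought the log2 ratio in CO12 from 0.07 to -0.67 (TMM) and -0.44 (median of ratios). In Trichy 1 either method brought it from 0.02 to -0.16.

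LOC_Os07g26690 had 38 reads (6.06 RPM) in control leaves of CO12 against 23 (12.6 RPM) under salt, and 10 (2.99 RPM) in control leaves of Trichy 1 against 16 (6.65 RPM) under salt. Each salt library was about 2-fold above its control, with ratios of 2.07 (1.18 to 3.57) in CO12 and 2.23 (0.949 to 5.49) in Trichy 1, the latter under the minimum of 20 reads. It had the lowest share of unique reads of the 10 loci, 67.8% over the 4 libraries, and over unique reads the CO12 ratio was 1.85 (0.888 to 3.69).

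LOC_Os07g26630 had 9 reads (1.43 RPM) without and 8 (4.37 RPM) with salt in CO12, and 11 (3.29 RPM) without and 23 (9.56 RPM) with salt in Trichy 1. Trichy 1 salt was the highest library and CO12 control the lowest. The ratios of salt to control were 3.04 (1.02 to 8.89) in CO12, from few reads, and 2.91 (1.36 to 6.61) in Trichy 1. Over unique reads they were 2.75 (0.664 to 10.8) in CO12, an interval that includes equality, and 2.58 (1.14 to 6.21) in Trichy 1.

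These last loci carry identifiers of chromosome 7 with 4 other features between them in the tables, and both have many reads that match several places, so reads may have been split between them or with other loci. Their sum, formed after the single values were seen, does not depend on a split between the pair. It was 7.49 RPM without and 16.9 RPM with salt in CO12, and 6.27 and 16.2 RPM in Trichy 1. Both salt libraries lay above both controls without overlap of intervals, with ratios of 2.26 (1.39 to 3.63) in CO12 and 2.58 (1.48 to 4.62) in Trichy 1. Over unique reads these were 2.02 (1.08 to 3.69) and 2.56 (1.38 to 4.91).

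The make-up of this pair differed between the genotypes beyond counting error, and no such difference was seen between salt and control. LOC_Os07g26690 held 80.9% (66.7% to 90.9%) of the pair's reads without and 74.2% (55.4% to 88.1%) with salt in CO12, but 47.6% (25.7% to 70.2%) without and 41.0% (25.6% to 57.9%) with salt in Trichy 1. Both CO12 libraries were above both Trichy 1 libraries. The ratio of LOC_Os07g26690 to LOC_Os07g26630 in Trichy 1 was 0.215 times that in CO12 without salt (0.0700 to 0.662) and 0.242 times that with salt (0.0867 to 0.676). Over unique reads these factors were 0.168 (0.0451 to 0.625) and 0.244 (0.0706 to 0.845). The comparisons with and without salt share no library. Of the 12 pairs within the classes, the interval between genotypes lay to 1 side of equality for 3 without salt and for 1, this pair, under salt. The others without salt also held LOC_Os07g26690, against LOC_Os02g41860 (0.370, 0.164 to 0.835) and LOC_Os04g16450 (0.211, 0.0475 to 0.932). Over unique reads the intervals of those others included equality. Between salt and control the ratio changed by a factor of 0.681 (0.230 to 2.01) in CO12 and 0.765 (0.263 to 2.23) in Trichy 1. Whether transcripts of the genotypes match the loci unequally well was not tested.

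**Figure D4:**
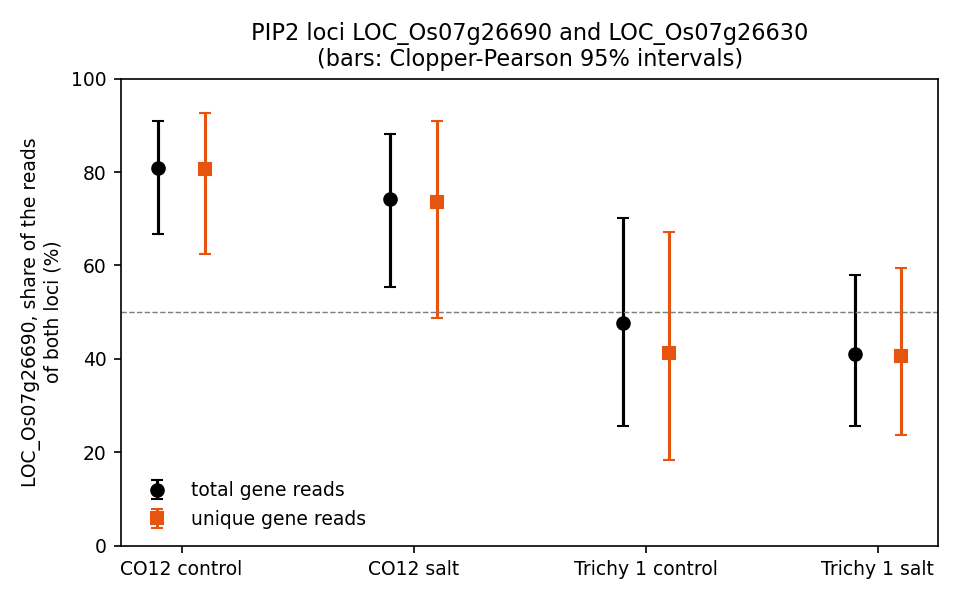
Share of LOC_Os07g26690 in the reads of the PIP2 loci LOC_Os07g26690 and LOC_Os07g26630 (y axis, percent) in the 4 libraries, over total gene reads (black) and unique gene reads (orange), with Clopper-Pearson 95% intervals. The CO12 libraries are at 80.9% and 74.2% and the Trichy 1 libraries at 47.6% and 41.0% of total gene reads.

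LOC_Os04g16450, the PIP2 locus with the fewest reads, had 4 reads in each CO12 library, 5 in Trichy 1 control leaves and 6 in those under salt, or 0.64 and 2.18 RPM in CO12 and 1.49 and 2.49 RPM in Trichy 1. Its ratios of 3.43 (0.638 to 18.4) and 1.67 (0.424 to 6.91) include equality.

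The TIP class, the water channels of the vacuole membrane, had the fewest reads of the 3 classes and the highest ratios of salt to control, with intervals that overlap those of the other classes. Its 3 loci together had 34 reads (5.42 RPM) in control leaves of CO12 against 19 (10.4 RPM) under salt, and 17 (5.08 RPM) in control leaves of Trichy 1 against 28 (11.6 RPM) under salt. With library totals, both controls stood at one level and both salt libraries at about 2 times that level. The ratios were 1.91 (1.03 to 3.45) in CO12 and 2.29 (1.21 to 4.46) in Trichy 1. Factors over all features brought the log2 ratio in CO12 from 0.92 to 0.17 (TMM) and 0.40 (median of ratios). In Trichy 1 they brought it from 1.17 to 0.99 with either method. Nearly all TIP reads were unique, between 94.1% and 100% per library.

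LOC_Os03g05290 supplied most of them. It had 23 reads (3.67 RPM) without and 14 (7.64 RPM) with salt in CO12, and 10 (2.99 RPM) without and 16 (6.65 RPM) with salt in Trichy 1. Both salt libraries were above both controls, but the intervals of the ratios, 2.08 (0.992 to 4.23) in CO12 and 2.23 (0.949 to 5.49) in Trichy 1, just included equality. LOC_Os06g22960 had 9 and 3 reads (1.43 and 1.64 RPM) in CO12 and 6 and 11 reads (1.79 and 4.57 RPM) in Trichy 1, control first, with Trichy 1 salt the highest library and a ratio of 2.55 (0.864 to 8.40) there and 1.14 (0.199 to 4.58) in CO12. LOC_Os01g74450 had 1 or 2 reads in each library, too few to give a direction.

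The share of each class in the reads of the 10 loci, which no library scaling changes, was alike in the CO12 libraries. PIP1 held 53.2% (47.4% to 59.1%) there without salt and 52.1% (43.6% to 60.4%) with salt. In Trichy 1, PIP1 held 57.4% (50.04% to 64.6%) in control and 45.9% (38.6% to 53.4%) in salt, with overlapping intervals. The TIP share was 11.6% and 13.0% in CO12 and 9.04% (5.36% to 14.1%) and 15.1% (10.3% to 21.1%) in Trichy 1. Between control and salt in Trichy 1, the ratio of TIP to PIP reads was multiplied by 1.79 (0.946 to 3.40) and the ratio of PIP1 to PIP2 reads by 0.689 (0.443 to 1.07), and in CO12 by 1.14 (0.625 to 2.08) and 0.984 (0.638 to 1.52). All 4 of these intervals include equality.

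**Figure D5:**
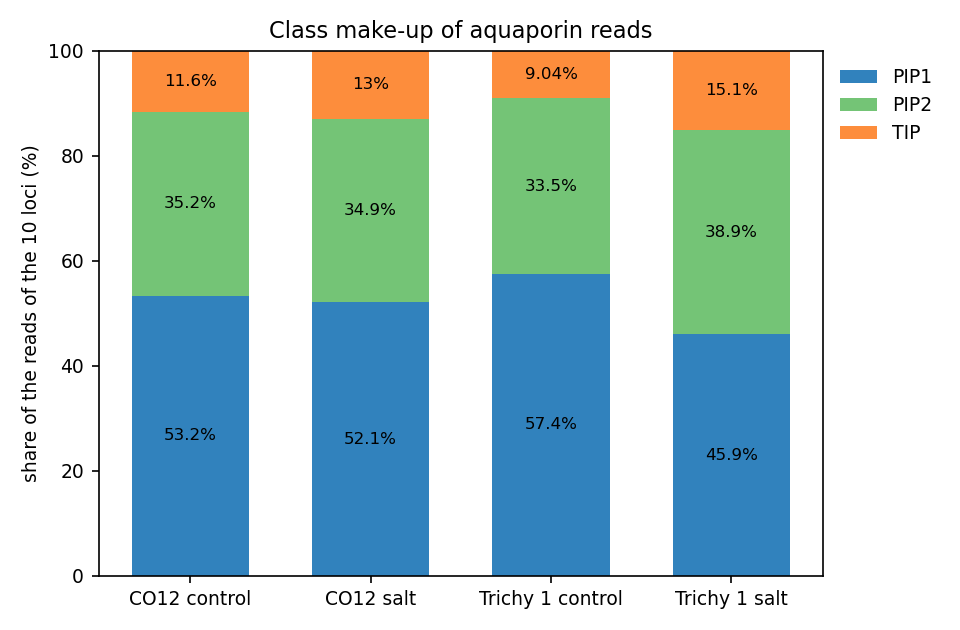
Share of the PIP1, PIP2 and TIP loci in the reads of the 10 aquaporin loci (y axis, percent) in each library. PIP1 is the largest class in each library, from 45.9% in Trichy 1 salt to 57.4% in Trichy 1 control, and TIP the smallest.

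Levels were compared between loci per kilobase of the deposited gene length (RPKM). These lengths, from 1490 bp (LOC_Os01g74450) to 4075 bp (LOC_Os02g41860), belong to rice identifiers. The order below rests on them, and whether they match the finger millet transcripts was not tested. LOC_Os04g47220 was first in each library, with 7.55 and 11.4 RPKM (control and salt) in CO12 and 8.79 and 7.46 RPKM in Trichy 1. LOC_Os02g57720 was second in each, with 2.68 and 6.43 RPKM in CO12 and 3.02 and 6.53 RPKM in Trichy 1, and LOC_Os01g74450 was last in each, with 0.200 to 0.733 RPKM. The level of LOC_Os04g47220 was 2.81 times (1.85 to 4.39) that of the second locus in CO12 control, 1.78 times (1.03 to 3.16) in CO12 salt, 2.91 times (1.69 to 5.25) in Trichy 1 control and 1.14 times (0.678 to 1.94) in Trichy 1 salt. Of the 36 pairs of neighbours in these orders, 3 differed beyond counting error, all of them this first step. Below the first place, no neighbours in the order differed beyond counting error. LOC_Os07g26630 stood at place 3 in Trichy 1 salt, at 6.22 RPKM, and at place 7 in CO12 control, at 0.93 RPKM.

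Between the genotypes the ratio of the aquaporin sum was near 1, and without salt it depended on the kind of read and the scaling. Without salt, Trichy 1 had 1.20 times (0.996 to 1.45) the RPM of CO12, and under salt 0.964 times (0.772 to 1.21). Over unique reads the ratio was 1.27 (1.04 to 1.55) without salt, an interval above equality, and 1.04 (0.817 to 1.33) under salt. With TMM factors over all features the log2 ratio without salt turned from 0.27 to -0.17. No locus was at least 2-fold apart without salt among the 6 that reached the minimum, against 7.54% of all features with Trichy 1 above CO12 and 9.19% with it below, and the median log2 ratio was 0.19 for these loci and 0.08 for all features. Under salt 1 of 6 was, LOC_Os07g26630, higher in Trichy 1 by a ratio of 2.19 (0.945 to 5.66), where 7.47% of all features were higher and 5.38% lower. LOC_Os07g26690 had the other order, with ratios of 0.493 (0.219 to 1.01) without salt and 0.529 (0.261 to 1.05) under salt. Without salt its log2 ratio with the prior count of 0.5 was -0.995, just short of 2-fold, and the 5 other scalings of total gene reads put it past that threshold. The PIP1 sum was 1.30 times (1.01 to 1.67) that of CO12 without salt, but with TMM factors over all features the log2 ratio turned from 0.37 to -0.07. The ratio of the salt responses of the 10-locus sum, Trichy 1 over CO12, was 0.802 (0.604 to 1.07).

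The features whose profile over the 4 libraries was nearest to that of the aquaporin sum, by Euclidean distance of centred log2 RPM among 573 features with at least 100 reads in all, were LOC_Os02g43519 and LOC_Os05g04510, at distances of 0.13 and 0.15. LOC_Os02g43519 had 45.8 RPM in control leaves of CO12 against 75.9 under salt, and 55.6 in control leaves of Trichy 1 against 82.7 under salt. With 4 libraries such a likeness is only a description.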

How the data were processed

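Leaf RNA was depleted of ribosomal RNA, fragmented with RNase III, ligated to adapters and sequenced on an Ion Proton instrument, per the labels' protocols. The authors deposited, per the file headers, counts of total gene reads and unique gene reads for 55986 features in each library, whole numbers that were not normalized, and RPKM values. The deposited RPKM equalled total gene reads per kilobase of deposited gene length and 1000000 reads of the library, with a largest relative difference of 5.7e-08. The sources used here name no aligner, counter or reference build. Molecular identifiers are not mentioned, so PCR copies count as reads.

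Total gene reads were scaled to library totals. Ratios have exact conditional binomial intervals, levels exact Poisson intervals and shares Clopper-Pearson intervals, all at 95%. Differences of responses and ratios between loci have intervals of 1.96 standard errors from the 4 counts. Log2 ratios used a prior of 0.5 count scaled to depth, and features at least 2-fold apart were counted over those with at least 20 reads in either library. Scaling alternatives used edgeR 4.0.16 in R 4.3.3 (TMM) and median-of-ratios factors; other steps used Python 3.11.15 and SciPy 1.17.1. The ratio and its interval were tested on simulated counts with known folds. Those counts were drawn with counting error only, so the test says nothing about replicate spread, PCR copies or reads that match several places. All 10 loci are named, and the 2 features most alike by a fixed distance. The loci and lists were chosen with earlier results of these data known. Other aquaporin loci and leaf markers were not used here, since no table pairs identifiers with names. No sequence was used.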

Additional observations from a re-analysis of the deposited data

Results flagged for a closer look

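The PIP1 loci LOC_Os04g47220 and LOC_Os02g44630 lay above control in CO12 salt and below control in Trichy 1 salt, each from 1 library per group. For LOC_Os04g47220 the ratios of salt to control were 1.51 and 0.849, and for LOC_Os02g44630 they were 1.44 and 0.942. The interval of the ratio includes equality for both loci in Trichy 1 and for LOC_Os02g44630 in CO12 (0.690 to 2.83), and the difference between genotypes was not tested against replicate spread. The opposite directions depended on the scaling for both. In CO12, TMM factors over all features gave log2 ratios of -0.16 for LOC_Os04g47220 and -0.23 for LOC_Os02g44630, and median-of-ratios factors gave 0.072 and -0.0037. In Trichy 1, LOC_Os02g44630 turned to 0.056 without the most abundant features, and to 0.091 (TMM) and 0.066 (median of ratios) with factors over features with at least 20 reads, while LOC_Os04g47220 stayed below 0 under every setting tried.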

How the results depend on the processing

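The aquaporin values are limited by depth and by 1 library per group. No library could therefore be left out, and no test, paired or not, was run. TMM factors and median-of-ratios factors over features with at least 20 reads were chosen after seeing the data; the other settings were planned. For the sum of the 10 loci, TMM factors over all features gave log2 ratios of 0.010 for salt in CO12 (0.24 with median-of-ratios factors, against 0.77), -0.17 between genotypes without salt (against 0.27) and 0.26 for the difference of response (against -0.32). These factors shifted the library sizes in CO12 by 0.76 and 0.53 on the log2 scale, and the second set of factors came from 4929 features, whose median count was 4. Over features with at least 20 reads the same methods gave 0.85 and 0.86, and the cause of the gap was not tested. TMM factors over all features also turned the log2 ratio of LOC_Os04g47220 in CO12 to -0.16, of PIP1 to -0.022, of PIP1 and PIP2 together to -0.013, and, between genotypes without salt, of PIP1 to -0.065 and of PIP1 and PIP2 to -0.13.

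The count of loci at least 2-fold apart for salt in CO12 was 3. It was 0 with TMM (3.41% of all features higher, 45.8% lower) or median-of-ratios factors (4.88%, 36.8%) over all features. It was 1 without the most abundant features (9.56%, 21.2%), with unique reads (7.43%, 22.4%) or with a prior of 2.5 (10.05%, 16.5%). With no minimum it was 6, all higher, where 27.9% of all features were higher and 53.8% lower. For salt in Trichy 1 it was 2, then 1 with TMM (9.77% of all features higher, 23.7% lower) or median-of-ratios factors (9.63%, 23.8%) over all features or with unique reads (8.68%, 18.1%). With no minimum it was 5, all higher, where 34.3% of all features were higher and 37.8% lower. Between genotypes without salt it was 0, then 1, lower in Trichy 1, with TMM or median-of-ratios factors of either kind or without the most abundant features. Those settings put between 10.9% and 19.3% of all features at least 2-fold lower. With no minimum it was 2, both higher, where 23.8% of all features were higher and 44.0% lower. Under salt it was 1, then 0 with unique reads (6.28% of all features higher, 4.93% lower) or a prior of 2.5 (5.03%, 4.17%). With no minimum it was 3, of which 2 were higher and 1 lower, where 38.9% of all features were higher and 33.4% lower. With a minimum of 100 reads no locus was left. Of the values of single loci and class sums, 36 of 420 changed sign, 17 of them with TMM and 9 with median-of-ratios factors over all features. The 5 given above had an interval that excluded equality, and the other 31 had one that included it. Another 5 moved outside their interval with the same sign, all for salt in CO12: PIP2 (0.0011) and the chromosome 7 pair (0.41) under TMM, and PIP1 (0.21), PIP2 (0.23) and their sum (0.22) under median of ratios, each over all features. The shares of the classes stayed within theirs with unique reads.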
